A study of Mus musculus with 29 samples.

Results

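The choroid plexus is the sheet of secretory epithelium that hangs in the brain ventricles, one branch of it directly against the hippocampus, and 10 genes of that epithelium were followed in hippocampal tissue: Ttr, Kl, Folr1, Calml4, Enpp2, Clic6, Kcnj13, Otx2, Sostdc1 and Aqp1. They were taken by symbol from a list, and all 10 were among the 24346 genes of the deposited table. The data were RNA sequencing of polyadenylated transcripts from 15 hippocampal and 14 liver libraries of male C57BL/6J mice, fed high-fat food for 10 weeks and kept for 4 more weeks on 1 of 4 regimens. HFD mice stayed on high-fat food without restriction and HFD-IF mice had it with fasting every other day, while CC mice were moved to control chow without restriction and CC-IF mice to control chow with intermittent fasting. The hippocampal libraries numbered 4 on HFD, 4 on HFD-IF, 4 on CC and 3 on CC-IF, and the liver libraries 4, 2, 4 and 4. No regimen went without the earlier high-fat feeding, the age of the mice is not given in the sources used here, and the tissue was bulk, about 20 mg per extraction.

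The choroid plexus makes most of the cerebrospinal fluid and secretes carrier proteins and growth factor regulators into it. Its epithelial cells move ions and water across their apical face, carry folate into the fluid, and make transthyretin in very large amounts, whereas neurons and glia of the hippocampus make little or none. Otx2 is a homeodomain factor needed for the epithelium to form and to be maintained. Liver also makes transthyretin, for the blood, so liver libraries give a second tissue for that gene.

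Values are FPKM, which divides the fragments of a gene by its length and by the size of the library, so levels of different genes are compared per length. Libraries are named by regimen and by the index in their column. The tissue labels held against markers: the neuronal genes Camk2a and Slc17a7 lay at 721 to 909 and at 298 to 398 FPKM in every hippocampal library, and the liver gene Apoa1 lay at 5464 to 9184 FPKM in every liver library. An exact 0 in this table is read as listed at 0 and not as absence, because Alb, the albumin gene, was listed at 0 in 8 of 14 liver libraries and at 29215 to 43965 FPKM in the other 6. Among hippocampal libraries, HFD library 1 was low in Ttr beside the rest of its group, and HFD-IF library 0, CC library 2 and CC-IF library 2 were high beside theirs. Differences of Ttr between regimens are given with and without these 4 libraries.

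Ttr encodes transthyretin, the carrier of thyroxine and of the retinol-binding protein, and lies on chromosome 18 at 20665280 to 20674321 (GRCm38, GENCODE M21, plus strand). In HFD libraries 0, 1, 2 and 3 its level was 1744, 33.5, 1372 and 1246 FPKM. In HFD-IF libraries 0 to 3 it was 320.1, 28.8, 7.48 and 17.0 FPKM. In CC libraries 0 to 3 it was 14.2, 16.6, 1615 and 74.1 FPKM, and in CC-IF libraries 0 to 2 it was 16.0, 14.4 and 957 FPKM. Thus 3 of 4 HFD libraries, 1 CC library and 1 CC-IF library carried Ttr at 957 FPKM or more, HFD-IF library 0 lay between, and the other 9 lay between 7.48 and 74.1 FPKM. The highest and the lowest library differed 233-fold, and every regimen held a library at 320.1 FPKM or more and a library at 33.5 FPKM or less, so that all 4 regimens overlapped. In the libraries where it was highest Ttr ranked 2 among 19814 protein-coding genes, and in HFD-IF library 2 it ranked 6255.

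**Figure D1:**
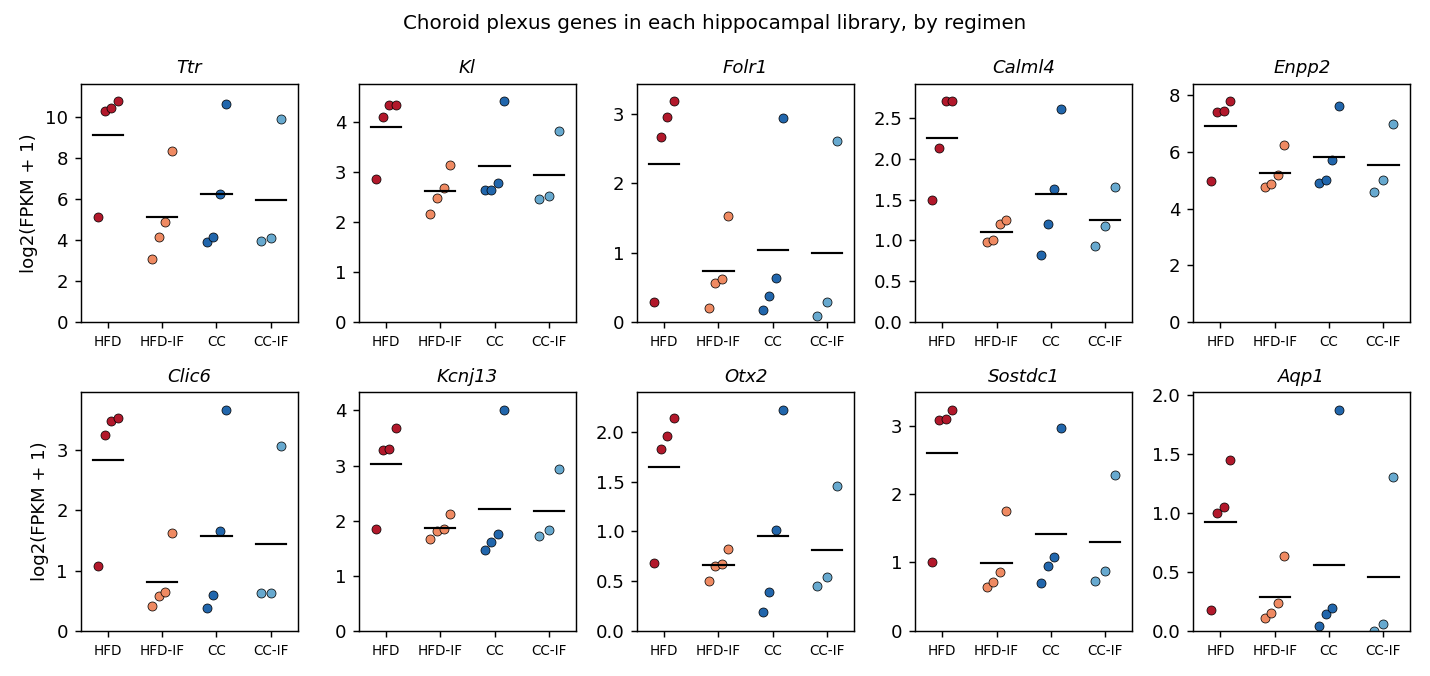
Level of each of the 10 genes in each hippocampal library, as log2(FPKM + 1), by regimen; points are libraries and lines are means of the logged values (n = 4 on HFD, 4 on HFD-IF, 4 on CC and 3 on CC-IF). In every panel except Calml4 each regimen overlaps each other, with HFD library 1 the low point of HFD and CC library 2 the high point of CC.

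Of the other secreted proteins, Enpp2 encodes autotaxin, the enzyme that makes lysophosphatidic acid, and lies on chromosome 15 at 54838901 to 54952892 (minus strand). Its level in HFD libraries 0 to 3 was 219, 30.6, 174 and 169 FPKM, and in HFD-IF libraries 0 to 3 it was 74.6, 35.0, 26.3 and 27.99 FPKM. In CC libraries 0 to 3 it was 30.85, 29.1, 193 and 50.8 FPKM, and in CC-IF libraries 0 to 2 it was 23.0, 31.3 and 125 FPKM. The high libraries were those high in Ttr, but no library fell below 23.0 FPKM. The gene is also known from oligodendrocytes, whose 8 marker genes summed to 1127 to 1788 FPKM in every library. Sostdc1, a secreted antagonist of BMP and Wnt signals (chromosome 12, 36314139 to 36318452, plus strand), lay at 1.01 to 8.38 FPKM on HFD, 0.563 to 2.38 on HFD-IF, 0.629 to 6.80 on CC and 0.664 to 3.84 on CC-IF. Kl encodes Klotho, a co-receptor for FGF23 whose ectodomain is shed into the fluid (chromosome 5, 150952607 to 150993817, plus strand). Its level was 19.2, 6.22, 19.2 and 16.0 FPKM in HFD libraries 0 to 3, 7.83, 5.44, 3.47 and 4.61 FPKM in HFD-IF, 5.201, 5.28, 20.3 and 5.88 FPKM in CC, and 4.54, 4.72 and 13.2 FPKM in CC-IF. The lowest library still held 3.47 FPKM of Kl, so its range was 5.86-fold, and that of Enpp2 9.50-fold, beside the 233-fold of Ttr.

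Folr1 encodes folate receptor alpha, which carries folate across the epithelium (chromosome 7, 101858331 to 101870788, minus strand). Its level was 8.05, 0.227, 6.71 and 5.34 FPKM in HFD libraries 0 to 3, 1.89, 0.470, 0.152 and 0.541 FPKM in HFD-IF, 0.125, 0.302, 6.69 and 0.551 FPKM in CC, and 0.0614, 0.225 and 5.06 FPKM in CC-IF. Clic6, of the chloride intracellular channel family (chromosome 16, 92485736 to 92541243, plus strand), stood at 10.6, 1.10, 10.2 and 8.54 FPKM in HFD, 2.096, 0.565, 0.326 and 0.494 FPKM in HFD-IF, 0.508, 0.299, 11.7 and 2.16 FPKM in CC, and 0.542, 0.538 and 7.39 FPKM in CC-IF. The 5 highest libraries were the same for both genes, at 5.06 to 8.05 FPKM of Folr1 and 7.39 to 11.7 FPKM of Clic6, and the other 10 lay at or below 1.89 and 2.16 FPKM.

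Kcnj13 encodes the inward-rectifier potassium channel Kir7.1 of the apical membrane (chromosome 1, 87386363 to 87394729, minus strand). Its level ranged over 2.61 to 11.8 FPKM on HFD, 2.18 to 3.34 on HFD-IF, 1.77 to 15.1 on CC and 2.31 to 6.70 on CC-IF. The gene lies wholly inside Gigyf2 on the opposite strand, which itself lay at 14.3 to 19.6 FPKM in hippocampus, and the sources used here do not say whether the authors counted by strand, so a floor of Kcnj13 reads from Gigyf2 cannot be told apart. Folr1 overlaps Anapc15 on the opposite strand over 7074 nt, a part of its length, and Anapc15 lay at 3.03 to 6.98 FPKM. Clic6 overlaps 2410124H12Rik on the same strand over 11631 nt, and that gene stayed at or below 0.459 FPKM in hippocampus. Clic6 itself was as low as 0.299 FPKM, so at its lowest levels reads of these genes cannot be told apart. Aqp1, the apical water channel (chromosome 6, 55336432 to 55348555, plus strand), had the lowest mean of the 10: 0.134 to 1.74 FPKM on HFD, 0.0814 to 0.553 on HFD-IF, 0.0287 to 2.67 on CC, and listed at 0, 0.0396 and 1.47 FPKM on CC-IF. Calml4, a calmodulin-like protein of brush borders (chromosome 9, 62858080 to 62875921, plus strand), was 5.51, 1.82, 5.51 and 3.39 FPKM in HFD libraries 0 to 3 and 1.30, 0.966, 1.01 and 1.37 FPKM in HFD-IF. It stood at 1.30, 0.768, 5.11 and 2.104 FPKM in CC and at 1.26, 0.909 and 2.13 FPKM in CC-IF. Otx2, the transcription factor (chromosome 14, 48657677 to 48673819, minus strand), ranged over 0.600 to 3.404 FPKM on HFD, 0.418 to 0.775 on HFD-IF, 0.143 to 3.66 on CC and 0.364 to 1.75 on CC-IF. Its antisense neighbour Otx2os1 stayed at or below 0.397 FPKM in hippocampus. Otx2 also overlaps Gm49154 on the same strand over 1726 nt, and the level of Gm49154 is not given here.

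Because high values of these genes fell in the same libraries, and Otx2 is one of them, promoters were read from RefSeq (GRCm38.p6, 250 bases before to 50 after a start). Promoters of 5 of the 10 genes were searched, 8 in all, and Ttr was not among these genes. Whether RefSeq holds promoters of the remaining genes is not given here. The bases TAATC, the core that Otx2 and related homeodomain factors are known to bind, were searched on both strands, as was the longer TAATCC, which contains it. TAATC was found in 3 of the 8 promoters, and 22% of all 32851 RefSeq mouse promoters hold it. TAATCC was found in 1 of the 8, against 7.06% of all. Several of the 8 belong to Otx2 itself, and some of those overlap. The 8 are therefore not independent, and nothing is concluded from these shares. The promoters with a match are printed 5′ to 3′ on the strand of the gene, with the match, TAATC or its reverse complement GATTA, in capitals.
Kl, chr5:150952357-150952656, plus strand: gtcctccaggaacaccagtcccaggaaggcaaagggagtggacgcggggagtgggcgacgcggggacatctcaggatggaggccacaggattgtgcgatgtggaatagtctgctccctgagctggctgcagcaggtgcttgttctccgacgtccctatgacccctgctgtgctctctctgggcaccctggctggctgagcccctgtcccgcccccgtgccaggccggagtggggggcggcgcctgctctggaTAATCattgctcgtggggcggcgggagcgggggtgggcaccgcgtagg
Kcnj13, chr1:87394680-87394979, minus strand: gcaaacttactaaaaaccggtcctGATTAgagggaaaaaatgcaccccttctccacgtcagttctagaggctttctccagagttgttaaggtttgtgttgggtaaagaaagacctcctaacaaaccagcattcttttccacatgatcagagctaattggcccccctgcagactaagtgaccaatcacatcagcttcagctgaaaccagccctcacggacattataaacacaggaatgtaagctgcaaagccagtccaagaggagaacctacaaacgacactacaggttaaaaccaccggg
Otx2, chr14:48665060-48665359, minus strand: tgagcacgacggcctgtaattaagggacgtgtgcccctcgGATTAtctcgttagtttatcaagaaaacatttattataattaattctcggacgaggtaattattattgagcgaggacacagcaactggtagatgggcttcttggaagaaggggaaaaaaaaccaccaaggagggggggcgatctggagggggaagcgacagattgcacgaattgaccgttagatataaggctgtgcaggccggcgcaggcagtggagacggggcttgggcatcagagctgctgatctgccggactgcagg
A match is a run of letters and says nothing of binding. The promoters of Calml4 and Aqp1 and the other 3 promoters of Otx2 held no TAATC in this window.

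In the order of Ttr the widest step, 2.097 on the log2(FPKM + 1) scale, separated CC library 3 (74.1 FPKM) from HFD-IF library 0 (320.1 FPKM). The 6 libraries above that step were, in rising order, HFD-IF library 0, CC-IF library 2, HFD libraries 3 and 2, CC library 2 and HFD library 0. The same 6 libraries were also the 6 highest for Kl, Folr1, Enpp2, Kcnj13, Sostdc1 and Aqp1, so that with Ttr itself 7 of the 10 genes split the libraries alike. The background was 0.255%, or 62 of the 24346 genes of the table with no filter on low values. Among the 12857 genes with a mean of at least 1 FPKM in hippocampus it was 0.264%, or 34 genes, and 14 had their 6 lowest values there. The 10 genes were chosen with earlier results of these data known, so their contrast with this background is a description only. Calml4, Clic6 and Otx2 differed only in HFD-IF library 0, which fell within the range of the libraries below the step. In bulk tissue, a library with fewer cells of a type and one with less RNA per cell cannot be told apart.

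**Figure D2:**
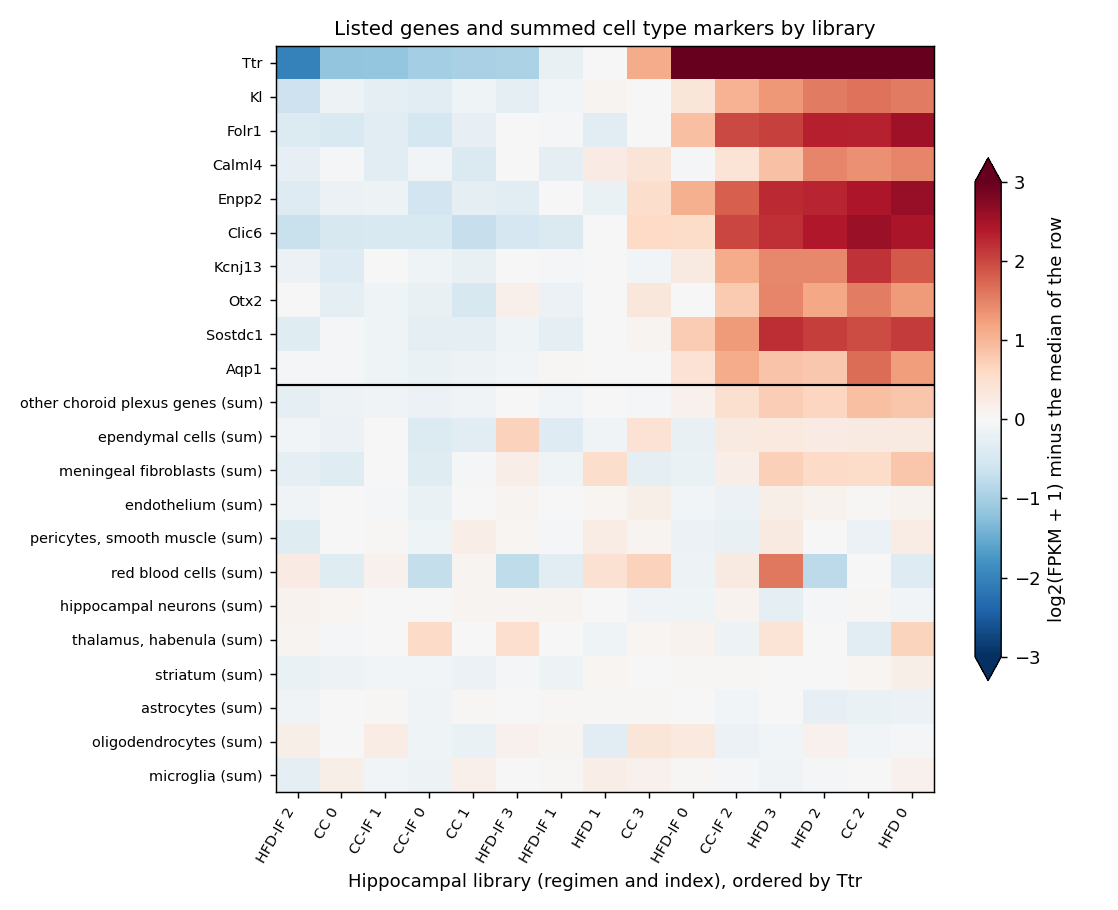
The 10 genes and the summed FPKM of marker lists of other cell types in the 15 hippocampal libraries, ordered by Ttr from left to right; colour is log2(FPKM + 1) minus the median of the line over libraries, with Ttr running past the upper end of the scale. The 6 rightmost libraries are high for the choroid plexus genes in every line of the upper block except HFD-IF library 0 for Calml4 and Otx2, while the sums for hippocampal neurons, astrocytes, microglia and endothelium vary little.

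Several of these genes varied widely between libraries of the same regimen. The residual SD, the spread of log2(FPKM + 1) left within regimens, was 2.86 for Ttr, against a median of 0.15 over all genes tested, and ranked 78 among the 12857. Of the 77 genes above it, 73 had no transcript of 300 nt or more, most of them small nucleolar RNA or microRNA genes, and among the 12246 genes with such a transcript, a restriction made after seeing the data, Ttr ranked 2. Clic6 ranked 91 among all genes (1.201), Folr1 92 (1.17) and Enpp2 95 (1.14), or 9, 10 and 13 among the longer genes. Sostdc1, Kcnj13, Kl, Otx2 and Calml4 followed at ranks 112, 119, 128, 138 and 176 among all, with residual SDs from 0.90 down to 0.53. Aqp1 had a mean of 0.622 FPKM and did not pass the filter of a mean of 1 FPKM, so 9 of the 10 genes were tested in hippocampus. Of those 9, Folr1, Clic6, Otx2 and Sostdc1 had means under 1 FPKM in the libraries below the step and passed the filter through the 6 above it.

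Within the 6 libraries above the step Ttr varied 5.45-fold, and some of the genes kept nearly the same proportion to it. Clic6 stayed at 6.06 to 7.72 FPKM per 1000 FPKM of Ttr, a coefficient of variation of 8.76%, although its own level varied 5.57-fold. Folr1 stayed at 4.14 to 5.92 per 1000 (13.7%), and Otx2 at 1.67 to 2.73 per 1000 (19.8%). The ratio was looser for Kl, at 11.01 to 24.5 per 1000 (32.9%), for Enpp2, at 119 to 233 per 1000 (30.0%), and for Aqp1, at 0.728 to 1.73 per 1000 (35.0%). In the 9 libraries below the step Clic6 lay at 18.02 to 43.6, Kl at 79.3 to 463 and Enpp2 at 686 to 3518 FPKM per 1000 FPKM of Ttr. These proportions lay above those of all 6 libraries, as did those of Calml4, Kcnj13, Otx2 and Sostdc1, whereas Folr1, at 3.84 to 31.9 per 1000, and Aqp1, at 0 to 14.96 per 1000, overlapped with them.

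Since the libraries fell into separate clusters, no correlation of Ttr with another of the 10 genes was taken over all 15. Ttr was related to each other gene within the 6 and within the 9 libraries, 18 relations in all. The 6 hold a further gap, as HFD-IF library 0 lay 1.58 below CC-IF library 2 on the log2(FPKM + 1) scale. Values of r and p within the 6 can therefore rest largely on HFD-IF library 0, and none without that library alone are given here. Pearson's r of log2(FPKM + 1) was positive in all 18, and 13 had a two-sided exact permutation p, adjusted over the 18, under 0.05. Within the 6 libraries Clic6 had r = 0.99 (Spearman's rho 0.94, exact permutation p = 0.00417, adjusted p = 0.0125). Folr1 had r = 0.99 with rho 0.94 and Enpp2 r = 0.99 with rho 1, each with an exact adjusted p = 0.0125 for r. Kl (r = 0.98), Kcnj13 (0.95), Calml4 (0.91), Otx2 (0.95) and Sostdc1 (0.91) also passed, with exact adjusted p from 0.0125 to 0.0475, and Aqp1 (r = 0.75, exact adjusted p = 0.127) did not. For rho, adjusted over the same 18, none was under 0.05, the lowest being 0.05 for Enpp2 among the 6.

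Without the 2 libraries farthest from the median of Ttr, the 4 left gave r = 0.96 for Enpp2, 0.90 for Folr1, 0.81 for Clic6, 0.79 for Kcnj13, 0.77 for Kl and 0.72 for Calml4, but 0.03 for Otx2 and -0.68 for Sostdc1. By r alone the last 2 fell most. With only 4 libraries and no test, these values cannot tell how far any of the relations rested on the 2 left out. Within the 9 libraries below the step Clic6 (r = 0.90, rho 0.68, exact adjusted p = 0.0125), Kl (r = 0.82, rho 0.78, exact adjusted p = 0.0215) and Enpp2 (r = 0.82, rho 0.48, exact adjusted p = 0.0242) passed. Calml4 (0.71) and Sostdc1 (0.69) passed narrowly, with exact adjusted p = 0.0475 and 0.0487, and Folr1, Kcnj13, Otx2 and Aqp1 did not. Without the 2 farthest libraries the 7 left gave r = 0.79 for Kl, 0.72 for Clic6, 0.42 for Enpp2, 0.42 for Calml4 and 0.13 for Sostdc1. None of the 9 relations passed with those 7, but fewer libraries also make the threshold harder to reach. That loss therefore cannot tell how far the 5 relations rested on the 2 libraries left out. By r alone, Kl moved little, from 0.82 to 0.79, while Enpp2, Calml4 and Sostdc1 fell most.

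**Figure D3:**
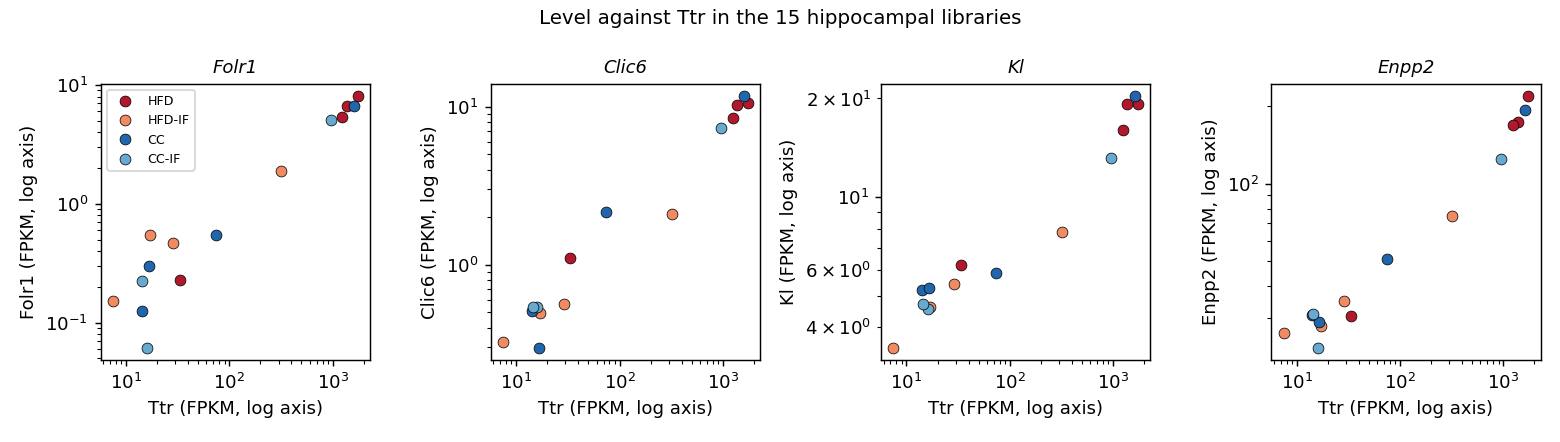
FPKM of Folr1, Clic6, Kl and Enpp2 against FPKM of Ttr in the 15 hippocampal libraries, both axes logarithmic, coloured by regimen. The 5 libraries at the upper right come from HFD, CC and CC-IF, HFD-IF library 0 lies apart at 320.1 FPKM of Ttr, and Kl and Enpp2 lie at 3.47 to 6.22 and 23.0 to 50.8 FPKM in the libraries below it.

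A list of 40 further genes of choroid plexus epithelium was set beside the 10. Of these, 39 were in the table and 27 passed the filter in hippocampus. In 19 of the 39, with no filter and against the background of 0.255%, the 6 highest libraries were the 6 highest of Ttr. Among these were the prolactin receptor gene Prlr, the tight junction gene Cldn2, the bicarbonate transporter gene Slc4a5, the transcription factor gene Lmx1a and Trpv4. This list too was chosen with earlier results of these data known, so its contrast with the background is a description only. The genes of that list with the highest mean level in hippocampus were less uniform. Slc4a10, a bicarbonate transporter also known from neurons, lay at 31.3 to 40.4 FPKM in the 9 libraries and at 33.2 to 48.8 FPKM in the 6, and the calcium pump gene Atp2b3 at 30.4 to 35.6 and 32.0 to 36.2 FPKM. The cation channel gene Trpm3 separated them, at 15.7 to 22.1 and 22.4 to 35.5 FPKM. Igfbp2, which binds insulin-like growth factors, ranged over 5.44 to 9.61 and 6.56 to 29.2 FPKM. The chloride cotransporter gene Slc12a2, the monoamine transporter gene Slc29a4, the protease inhibitor gene Spint2 and the carbonic anhydrase gene Car12 overlapped between the 9 and the 6, within 4.36 to 17.4 FPKM together.

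The genes whose pattern was most like that of the 9 tested members were sought over 12003 other genes, by Pearson correlation over the 15 libraries with the mean of the 9, each scaled to mean 0 and SD 1. The measure is a description, since all genes of a library share its dissection, its depth and its scaling, and since it spans the step between the 6 and the 9 libraries, which any gene with that split follows. The 10 nearest were F5 (0.995), Kcne2 (0.992), Sulf1 (0.990), Col9a3 (0.988), Tmem72 (0.987), 1500015O10Rik (0.987), Ace (0.986), Abca4 (0.982), Drc7 (0.981) and Cgnl1 (0.980). Of these, 6 were on the list of further choroid plexus genes, as were 17 of the nearest 40. That list gave 27 of the 12003 candidates. Of the 6, F5, Kcne2, Tmem72 and Abca4 had means under 1 FPKM below the step and passed the filter through the 6 libraries above it. Genes that passed in that way were bound to follow the split, so these counts are not read further. F5, which encodes coagulation factor V, lay at 0.0389 to 0.456 FPKM in the 9 libraries and at 0.804 to 4.44 FPKM in the 6. 1500015O10Rik lay at 0.464 to 2.25 and at 3.14 to 16.4 FPKM, and the extracellular sulfatase gene Sulf1, which was on no list, at 0.444 to 1.00 and 1.79 to 5.66 FPKM.

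Marker lists of other cells that a hippocampal dissection can hold were summed per library. The 13 ependymal genes, of the ciliated cells that line the ventricle, summed to 20.7 to 45.0 FPKM, and the highest sum was in HFD-IF library 3, where Ttr was 17.0 FPKM. The libraries with Ttr at 957 FPKM or more summed to 32.9 to 34.0 FPKM. Apart from HFD-IF library 3 and CC library 3 (37.7 FPKM), the rest summed to 20.7 to 27.6 FPKM. The relation of these sums to Ttr was not tested. The 15 genes of meningeal fibroblasts summed to 34.1 to 80.1 FPKM and were highest in HFD library 0 (80.1), HFD library 3 (73.5), HFD library 2 (66.8), CC library 2 (65.9) and HFD library 1 (64.1). The first 4 of those libraries had Ttr at 1246 FPKM or more and HFD library 1 had 33.5 FPKM, while HFD-IF library 0 summed to only 38.5 FPKM. Excitatory neuron genes summed to 2148 to 2780 FPKM, endothelial genes to 45.0 to 57.7 FPKM, pericyte and muscle genes to 31.3 to 49.3 FPKM and red blood cell genes to 1.23 to 10.52 FPKM. Thalamic and habenular genes summed to 33.4 to 67.5 FPKM, striatal genes to 41.5 to 53.8, astrocytic genes to 701 to 852 and microglial genes to 107 to 148 FPKM. Striatal sums were 41.5 to 49.5 FPKM below the step in Ttr and 47.5 to 53.8 FPKM above it. Astrocytic sums were 765 to 852 FPKM below it and 701 to 828 FPKM above it. No gene on the lists of ependymal, meningeal, endothelial, mural, blood, neuronal, thalamic, striatal, astrocytic, oligodendrocytic or microglial markers had its 6 highest libraries in the 6 of Ttr. Of all genes in the table only 0.255% had them there. A count of 0 in lists this short therefore cannot tell whether these cells followed the split. The genes of hepatocytes, which also make transthyretin, summed to 0.576 to 2.17 FPKM in hippocampus, where Alb stayed at or below 0.111 FPKM and Ahsg was listed at 0 in every library.

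The regimens were compared with limma on log2(FPKM + 1), all 4 regimens in 1 model, adjusted by the Benjamini-Hochberg method over the 12857 genes. None of the 9 tested members passed an adjusted p of 0.05 in any of 6 contrasts, where percent called over all genes was 0% in 5 contrasts and 0.00778% (1 gene) in CC-IF against CC. By median, the widest differences were those of fasting on high-fat food. Mean Ttr was 1099 ± 741 FPKM (SD, n = 4) on HFD and 93.3 ± 151 FPKM (SD, n = 4) on HFD-IF, a log2 difference of -4.03 ± 1.74 (SE; limma adjusted p = 0.637; unadjusted p = 0.0354 by limma). All 9 members had negative differences, with a median of -1.54 on the log2 scale against 0.05 for all genes, and all 9 had an unadjusted p under 0.05, as did 977 of all genes. Folr1, Clic6, Otx2 and Sostdc1 passed the filter only through the 6 libraries highest in Ttr, HFD libraries 0, 2 and 3 among them. The counts of members here and in the contrasts that follow therefore describe the genes tested. Clic6 differed by -2.02 ± 0.73 (limma adjusted p = 0.582), Sostdc1 by -1.61 ± 0.55 (0.576), Kl by -1.28 ± 0.43 (0.576) and Calml4 by -1.15 ± 0.33 (0.521). Calml4 was the only member whose HFD and HFD-IF libraries did not overlap, at 1.82 to 5.51 against 0.966 to 1.37 FPKM, and 1.02% of all genes were lower without overlap in that comparison. Of all 60 pairings of a gene with 2 hippocampal regimens, that was the 1 without overlap.

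Meningeal genes had the same sign in that contrast. All 14 tested had lower means on HFD-IF than on HFD, with a median of -0.51 and 12 at an unadjusted p under 0.05, none of them past the adjusted threshold, and the HFD libraries summed to 64.1 to 80.1 FPKM against 36.1 to 51.1 FPKM on HFD-IF. Of the ependymal genes 7 of 10 had negative differences, with a median of -0.11, and sums of 25.7 to 34.0 FPKM on HFD and 20.8 to 45.0 FPKM on HFD-IF. The 8 oligodendrocyte genes all had positive differences, with a median of 0.21 and 1 at an unadjusted p under 0.05. The part of these cells in the result for the choroid plexus genes was not tested. Without HFD library 1, the low one of its group, the log2 difference of Ttr was -5.37 (limma adjusted p = 0.453), and without HFD-IF library 0 it was -5.10 (0.452). These libraries were picked by their Ttr, so leaving them out widens the difference. Over all single libraries left out it ran from -5.37 to -3.35.

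Chow in place of high-fat food gave differences of the same sign. Mean Ttr on CC was 430 ± 791 FPKM (SD, n = 4), a log2 difference from HFD of -2.91 ± 1.74 (limma adjusted p = 0.994), and it was -4.38 (0.681) without CC library 2 and -4.25 (0.777) without HFD library 1. Over all single libraries left out it ran from -4.38 to -2.14. The members' median difference was -1.10, 1 of the 9 had an unadjusted p under 0.05 (458 of all genes had), and the 14 meningeal genes again all had negative differences, with a median of -0.52. CC-IF, with a mean of 329 ± 544 FPKM of Ttr (SD, n = 3), differed from HFD by -3.17 ± 1.88 (limma adjusted p = 0.678), by -5.13 (0.539) without CC-IF library 2 and by -4.51 (0.499) without HFD library 1. Over all single libraries left out that difference ran from -5.13 to -2.15. The members' median was -1.28, with 2 of 9 at an unadjusted p under 0.05 (1131 of all genes). The 14 meningeal genes were negative in that comparison too, with a median of -0.55. These 3 comparisons share the HFD libraries, so their likeness adds nothing to any 1 of them.

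On chow the differences with fasting were small beside their errors. The log2 difference of Ttr from CC to CC-IF was -0.26 ± 1.88 (limma adjusted p = 0.998), with a 95% interval from -4.27 to 3.75, and the members' median was -0.14, with 0 of 9 at an unadjusted p under 0.05 (822 of all genes). Without CC library 2 it turned to 1.21, without CC-IF library 0 or 1 to 0.69 or 0.76, and without CC-IF library 2 it was -2.22. From HFD-IF to CC-IF it was 0.86 ± 1.88 (limma adjusted p = 1), -1.10 without CC-IF library 2 and 1.93 without HFD-IF library 0, with a members' median of 0.30. The interaction, the fasting difference on chow minus that on high-fat food, was 3.77 ± 2.56 for Ttr (limma adjusted p = 0.982; 95% interval -1.70 to 9.23). Its median over the members was 1.37, and 0 of 9 had an unadjusted p under 0.05, so an unequal response to fasting on the 2 foods was not detected, within intervals that allow large ones. The value for Ttr was 1.805 without CC-IF library 2, 4.84 without HFD-IF library 0, 5.11 without HFD library 1 and 5.24 without CC library 2. The 14 meningeal genes all had positive values in the interaction, with a median of 0.51 and 7 at an unadjusted p under 0.05 (436 of all genes).

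**Figure D4:**
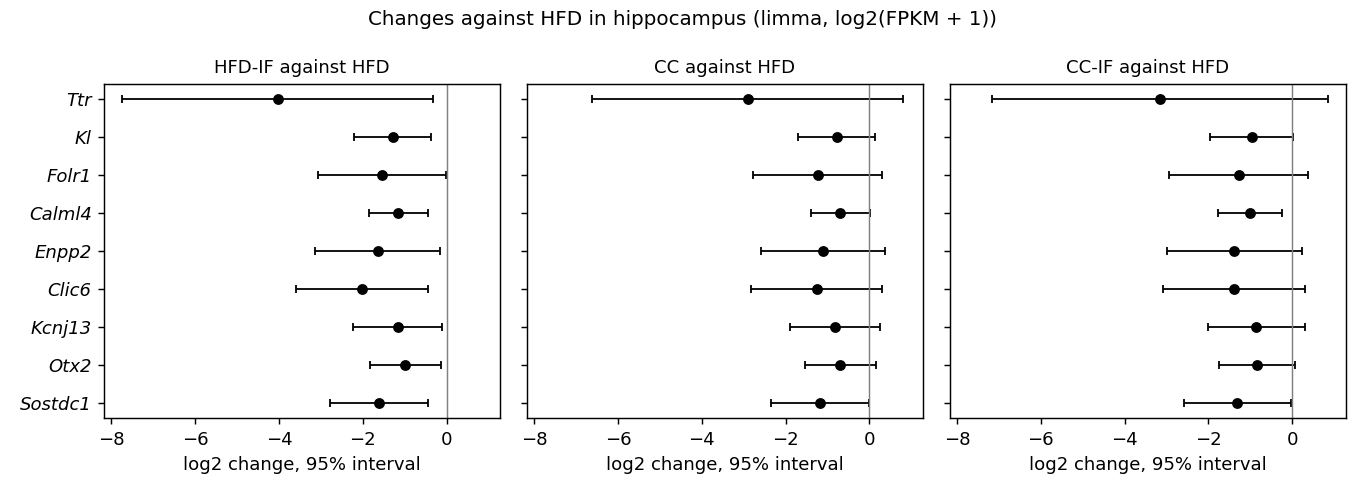
Log2 difference of the 9 tested members in HFD-IF, CC and CC-IF against HFD in hippocampus, on the log2(FPKM + 1) scale, with 95% intervals from limma before adjustment. All points lie below 0, the intervals of Ttr are the widest, and none passed an adjusted p of 0.05.

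Of the 27 tested genes of the further choroid plexus list, again 0 were called by limma in any of the 6 hippocampal contrasts. Among them 12 passed the filter only through the 6 libraries highest in Ttr, so the counts that follow describe the genes tested and not the list. Negative differences were found in 27 of 27 in HFD-IF against HFD, with a median of -0.72 and 17 at an unadjusted p under 0.05 (977 of all 12857 genes). Against HFD, 26 of 27 were negative on CC (median -0.48, 5 at an unadjusted p under 0.05, beside 458 of all genes). On CC-IF 27 of 27 were negative (median -0.58, 7 at an unadjusted p under 0.05, beside 1131 of all genes). Kcne2, a potassium channel subunit gene, differed by -1.93 ± 0.62 in HFD-IF against HFD (limma adjusted p = 0.564), whereas Slc4a10 differed by -0.07 ± 0.11 (0.874). From CC to CC-IF, 22 of 27 were negative with a median of -0.07, from HFD-IF to CC-IF 20 were positive with a median of 0.14, and in the interaction 26 were positive with a median of 0.66.

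Liver gave another picture, in which Ttr was high everywhere. It lay between 2955 and 8397 FPKM in all 14 liver libraries and ranked 6 to 15 among protein-coding genes. On HFD it averaged 7626 ± 988 FPKM (SD, n = 4), on CC 7492 ± 417 (SD, n = 4) and on CC-IF 5644 ± 559 (SD, n = 4), and the 2 HFD-IF libraries stood at 6774 and 2955 FPKM. Enpp2 in liver was 36.5, 24.7, 28.7 and 29.2 FPKM in HFD libraries 0 to 3 and 15.4, 13.6, 11.9 and 17.5 FPKM in CC libraries 0 to 3. It was 25.8, 36.4, 19.8 and 22.8 FPKM in CC-IF libraries 0 to 3, and 43.8 and 24.8 FPKM on HFD-IF, so the 4 CC libraries were the lowest of all. Aqp1, which liver expresses in bile ducts and vessels, was 19.6 to 27.0 FPKM on HFD, 16.3 and 22.4 on HFD-IF, 22.8 to 29.6 on CC and 17.2 to 22.5 on CC-IF. Calml4 (0.347 to 3.29 FPKM) and Kcnj13 (0.773 to 5.23 FPKM) completed the 5 members that passed the filter, and Kcnj13 again lay inside Gigyf2, at 14.7 to 23.9 FPKM in liver. Of the rest, Otx2 and Sostdc1 were listed at 0 in all 14 libraries, Kl in 12, and Folr1 and Clic6 stayed at or below 0.245 and 0.0905 FPKM.

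Enpp2 was the member that changed with diet in liver. It was 29.8 ± 4.90 FPKM (SD, n = 4) on HFD and 14.6 ± 2.38 (SD, n = 4) on CC, a log2 change of -0.98 ± 0.20 (limma adjusted p = 0.0272), and rose by 0.78 ± 0.20 from CC to 26.2 ± 7.24 FPKM (SD, n = 4) on CC-IF (adjusted p = 0.0147). In CC against HFD it was the 1 member called of 5, all directions counted, where 2.3% of all genes were called, and 9.5% were lower without overlap, as Enpp2 was. Leaving out single libraries moved the adjusted p between 0.0346 and 0.0953, and with no filter on low values it was 0.0504, so that call was at the threshold. It was lost without HFD library 0, 2 or 3 and without CC library 0, 1 or 2. In CC-IF against CC the members called were Enpp2 and Aqp1, 2 of 5, where 24% of all genes were called. Aqp1 fell there from 26.1 ± 2.79 to 19.5 ± 2.37 FPKM (SD, n = 4 each), a log2 change of -0.40 ± 0.13 (adjusted p = 0.0383), with adjusted p from 0.0321 to 0.1104 when single libraries were left out. That call was lost without CC library 0, 1 or 3 and without CC-IF library 0, 2 or 3.

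Ttr was lower without overlap on CC-IF than on CC, as were 11.4% of all genes, but did not pass, with -0.41 ± 0.21 (limma adjusted p = 0.180). From HFD to HFD-IF it differed by -0.76 ± 0.26 (adjusted p = 0.159), and by -1.36 (0.00162) with HFD-IF library 1 alone or -0.16 (0.785) with library 0 alone, each such fit taking the spread of the lone library from the rest. No member was called in HFD-IF against HFD (1.32% of all genes), in CC-IF against HFD-IF (0.591%), in CC-IF against HFD (23.7%) or in the interaction (1.11%), while 1, 0, 1 and 0 members had an unadjusted p under 0.05. Over all 11497 genes those counts were 2043, 2091, 4236 and 2101. For Enpp2 the interaction was 0.62 ± 0.32 (adjusted p = 0.324; 95% interval -0.07 to 1.32).

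**Figure D5:**
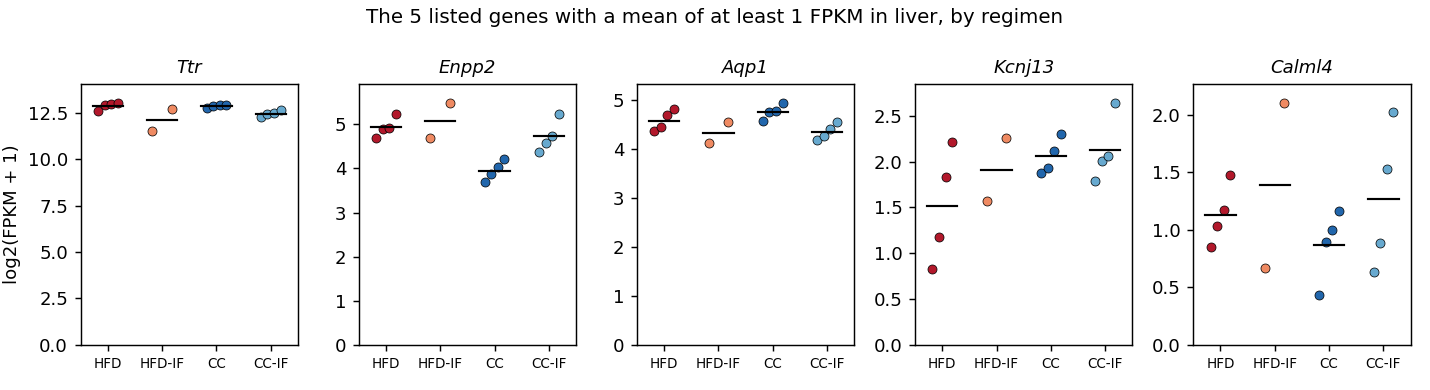
Level of the 5 members with a mean of at least 1 FPKM in liver, as log2(FPKM + 1), by regimen; points are libraries and lines are means of the logged values (n = 4 on HFD, 2 on HFD-IF, 4 on CC and 4 on CC-IF). The 4 CC libraries are the lowest for Enpp2, and Ttr is at 2955 FPKM or more in every library.

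Of the further choroid plexus list, 15 genes were tested in liver. In CC against HFD, where 2.3% of all genes were called, 1 was lower, the carbonic anhydrase gene Car14 at -0.995 ± 0.214 (limma adjusted p = 0.0324). In HFD-IF against HFD (1.32% of all genes called) 1 was higher, Igfbp2 at 1.77 ± 0.31 (0.0227). In CC-IF against CC, where 24% of all genes were called, 6 were higher, Igfbp2 (1.32), Lbp (0.79), Rbm47 (0.54), Perp (0.45), F5 (0.44) and Cab39l (0.34), and 1 was lower, the keratin gene Krt18 (-0.55), with limma adjusted p from 0.00279 to 0.0455. Krt18 was also lower in CC-IF against HFD-IF (-0.77, adjusted p = 0.0494; 0.591% of all genes called). Both contrasts with HFD-IF rest on 2 libraries, which differed widely, as in Ttr at 6774 and 2955 FPKM. Whether Igfbp2 and Krt18 stay called there without either library is not given here. In CC-IF against HFD, with 23.7% of all genes called, Igfbp2 (2.24), Slc4a2 (0.36) and F5 (0.35) were higher and Cldn2 (-0.82) and Krt18 (-0.52) lower, with limma adjusted p from 0.000142 to 0.0429. Several of these, such as the coagulation factor gene F5 and the lipopolysaccharide-binding protein gene Lbp, are ordinary products of hepatocytes.

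The tissues were compared on CC in 1 model of all 8 groups, over 14415 genes of which 85.2% were called. Of the 10 members 7 were called, 5 higher and 2 lower in hippocampus. Kl, Folr1, Clic6, Otx2 and Sostdc1 passed the filter through hippocampus and Aqp1 through liver, so for these 6 the direction followed from the filter, and the count is not read further. Ttr was lower in hippocampus, with a log2 difference from liver of -6.63 ± 1.37 (limma adjusted p = 8.42e-05), and Enpp2 was higher (1.85 ± 0.56, 0.00395). Calml4 (0.70 ± 0.35, 0.0665) and Kcnj13 (0.15 ± 0.44, 0.748) did not pass. These 4 passed the filter in each tissue. For the 6 whose direction followed from the filter, p-values are left out. Aqp1 differed by -4.19 ± 0.32, Clic6 by 1.55 ± 0.57 and Folr1 by 0.94 ± 0.56. Kl, Otx2 and Sostdc1 were listed at 0 in all 4 CC liver libraries. CC library 2 of hippocampus weighed on these values: without it 5 members were called, Clic6 and Otx2 no longer among them, and the log2 difference of Ttr was -8.10. Of the further choroid plexus list 31 were tested, 13 higher and 14 lower in hippocampus, with the same limit.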

How the data were processed

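RNA was measured in 15 hippocampal and 14 liver libraries, which are strand-specific TruSeq libraries sequenced as paired reads, per the labels' protocols. The authors deposited 1 table of FPKM (24346 genes). The submitters' processing notes name build GRCm38 (mm10), Bowtie2 2.3.5.1, TopHat2 2.1.1, Trimmomatic 0.39 and FastQC 0.11.9. What program and annotation gave the FPKM, and whether it used strand, is not given in the sources used here. Columns were tied to tissue and regimen by name, with 0 columns left over, and carry indices other than the sample numbers of the labels. The series design calls samples of a group biological replicates, and p-values rest on the spread between them.

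Depth is not given. Low FPKM values read as whole fragments put it near 11.8 to 36.8 M fragments in hippocampus and 9.53 to 16.3 M in liver. This is rough, as 46.7% to 66.5% of those values came within 0.15 of a whole number, against 30% by chance. Genes above 0 numbered 17160 to 18057 and 15087 to 16343. Over 40 pairs of libraries of 1 group at least 99.99% of values differed, with r from 0.953 to 0.984, so none was a repeat of another.

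Values were tested as log2(FPKM + 1) with limma 3.58.1 in R 4.3.3, in genes with a mean of at least 1 FPKM in the tissue (12857 in hippocampus, 11497 in liver, 14415 in either). The scale understates changes of low genes. The model had 1 term per regimen, a trended prior, two-sided p-values and Benjamini-Hochberg adjustment over all genes, with a threshold of 0.05. Errors are SE for log2 changes and SD for FPKM. The scripts were tested on simulated data. Correlations used exact permutation in Python 3.11.15 with pandas 2.3.3, numpy 2.4.6, scipy 1.17.1 and matplotlib 3.10.9.

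The 10 genes and the marker lists were chosen with earlier results of these data known. All 10 are named, and of the further choroid plexus list the 8 with the highest mean in hippocampus and those called between regimens, while for the tissue contrast, where most genes were called, counts are given. Prlr, Cldn2, Slc4a5, Lmx1a and Trpv4 were named after their values were seen. The 10 most alike genes were taken by correlation, leaving out predicted genes. Alternatives were a pseudocount of 0.1, no filter, scaling by median ratio, robust moderation, fits on the compared groups alone, and each library left out.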

Additional observations from a re-analysis of the deposited data

Results flagged for a closer look

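In groups of 4 libraries the highest or lowest value was compared with the rest on the log2(FPKM + 1) scale, and its gap to the nearest library, divided by the range of the group, was set against Dixon's 95% critical value of 0.829. Over the 10 genes 52 groups were examined and 11 passed, with gaps of 0.831 to 1 of the range, where chance gives about 1 in 20, and genes of 1 library are not independent. Groups of 2 or 3 libraries, such as CC-IF in hippocampus, were not examined. In hippocampal HFD library 1 the low values were Ttr at 33.5 FPKM, Kl at 6.22, Enpp2 at 30.6, Clic6 at 1.10 and Sostdc1 at 1.01. In hippocampal CC library 2 the high values were Kl at 20.3 FPKM, Folr1 at 6.69, Kcnj13 at 15.1, Sostdc1 at 6.80 and Aqp1 at 2.67. The summed meningeal markers were 64.1 FPKM in the former library and 65.9 FPKM in the latter, and their part was not tested. In liver, Kl was 0.0175 FPKM in CC-IF library 0 and listed at 0 in the other 3, the size of a single fragment.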

How the results depend on the processing

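The count of members called in hippocampus was 0 in all 81 refits over the 6 contrasts, while counts over all genes stayed between 0 and 4. In liver, CC against HFD gave 0 members with no filter on low values and 0 to 1 when single libraries were left out. CC-IF against CC gave 1 with no filter, since Aqp1 had a limma adjusted p = 0.0618, 1 to 2 when single libraries were left out, and 3 in a fit on both groups alone, where Ttr had an adjusted p = 0.0365. The other 4 liver contrasts each gave 0 to 1 when single libraries were left out, the 1 coming without HFD-IF library 0 or, in CC-IF against HFD, without HFD library 2. Counts over all liver genes ran from 51 to 496 for CC against HFD (265 as reported), 5 to 1633 for HFD-IF against HFD (152), 1968 to 2991 for CC-IF against CC (2756), 1 to 1773 for CC-IF against HFD-IF (68), 2027 to 2760 for CC-IF against HFD (2726) and 16 to 1766 for the interaction (128). The tissue contrast gave 5 to 8 members when single libraries were left out, and 8 with a pseudocount of 0.1 (Folr1) or with scaling (Calml4, adjusted p = 0.0417). Signs turned under left-out libraries for the log2 change of Ttr in CC-IF against CC, from -2.22 to 1.21 (0.69 and 0.76 without CC-IF library 0 or 1), for Ttr in CC-IF against HFD-IF, from -1.10 to 1.93, and for Kcnj13 between tissues, from -0.45 to 0.40. Of the relations with Ttr, 11 of 18 passed with a pseudocount of 0.1 or scaling, 8 to 13 when each of the 9 libraries below the step was left out (8 without CC library 3), 5 of 9 centred on regimen means within the 9, and 0 of 9 without the 2 farthest libraries, which left 7. The cause of these moves was not tested beyond the smaller number of libraries. No paired analysis was possible because the columns carry none of the labels' sample numbers, so the planned block on replicate was not run. Depth limits the lowest genes most: 1 fragment was worth 0.0233 to 0.0729 FPKM for Folr1 in hippocampus.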
